A study of Mus musculus with 6 samples.

Results

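The comparison described here sets 2 PS19 libraries given WDR5-0103 against the 2 control libraries, 4 of the 6 libraries of the series. It asks which coding genes and functions differ from control in tau transgenic cortex under treatment. All 6 libraries are bulk RNA of the tissue labelled PFC from mice aged 6 months. The control mice were of C57BL/6 by C3H background and received vehicle. The treated mice carried the PS19 transgene, human tau with the P301S change, and received WDR5-0103, a small molecule that binds WDR5. The 2 libraries of vehicle-treated PS19 mice are given beside them. The groups are called control, treated tau and tau. The PS19 transgene is driven by the mouse prion promoter, so transgene expression follows the cells in which that promoter is active. Neither dose nor route nor duration of treatment is named in the labels. The libraries of a group are described in the labels as biological duplicates, so each p-value rests on 2 libraries a group and on a spread shared over all 6.

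WDR5 is a scaffold subunit shared by the MLL and SET1 complexes, which methylate lysine K4 of histone H3 at the promoters of active genes. WDR5-0103 occupies the pocket of WDR5 that takes up the methyltransferase subunit. Mutant tau that leaves microtubules aggregates in neurons, and in PS19 mice this is accompanied by synaptic and neuronal loss. In bulk tissue, fewer cells of a type and less RNA per cell cannot be told apart.

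Total counts ran from 24525020 to 34774643 in the 4 libraries compared. Levels are TMM-scaled CPM, counts relative to library size, and a pair of values follows the library numbers, so the first control value is that of the library labelled control 1. Prnp, whose promoter drives the transgene, had 1654 and 876 CPM in control, while the treated tau libraries had 1876 and 1594 and the tau libraries 1684 and 1472. By this gene the first control library went against its label, and every direction below draws on it. It also had a summed CPM of 485 for the 7 olfactory bulb neuron markers tested, against 197 to 211 in the other 5 libraries. Xist had 0.197 and 318 CPM in control, 2.43 and 1.75 in treated tau, and 186 and 235 in tau, and the Y-linked Ddx3y was high in the libraries where Xist was low. The treated tau tables list other symbols than the 4 other tables, and only the 53640 symbols found in all 6 tables were used. Treatment, the set of symbols counted and, against tau, sex cannot be told apart. Against control, sex was uneven by Xist, which was high in control 2 alone of the 4 libraries compared. Summed markers of excitatory cortical neurons, the cells that define the labelled tissue, stood at 2012 and 2294 CPM in control and at 2401 and 2366 in treated tau. Oligodendrocyte markers differed widely within groups, with sums of 3179 and 1585 CPM in control and 2642 and 5949 in tau. In treated tau they summed to 2783 and 3097 CPM. All 12 had a positive fold change in treated tau against control (median 0.29), and none was called.

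Of 20694 genes tested, 873 (4.22%) differed between treated tau and control at an adjusted p under 0.05 in the quasi-likelihood test of edgeR, 687 higher (3.32%) and 186 lower (0.899%). Predicted genes with Gm symbols made up 629 of these calls, or 72.1%, and symbols ending in -ps another 79. Coding genes contributed 125 calls of 14529 tested (0.86%), of which 52 were higher (0.358%) and 73 lower (0.502%). Many of these share sequence with other genes. Coding genes at 1 locus with at most 5% of their 50-base words found in another gene on either strand are called single-copy here, and 47 of 10927 of them (0.43%) were called, 14 higher (0.128%) and 33 lower (0.302%). The remaining 78 called coding genes, of 3602 tested, shared sequence above that limit. In the same edgeR fit, tau against control gave 0 calls, with 2059 genes at an unadjusted p under 0.05, while DESeq2 called 50 and limma-voom 0. Treated tau against tau gave 779 calls (3.76%), of which 154 were coding (1.06%) and 53 single-copy (0.485%). In treated tau against control the 2 groups' libraries did not overlap for 46.3% of all genes tested, for 41.4% of coding genes and for 40.6% of single-copy coding genes, so a lack of overlap alone is common here.

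**Figure D1:**
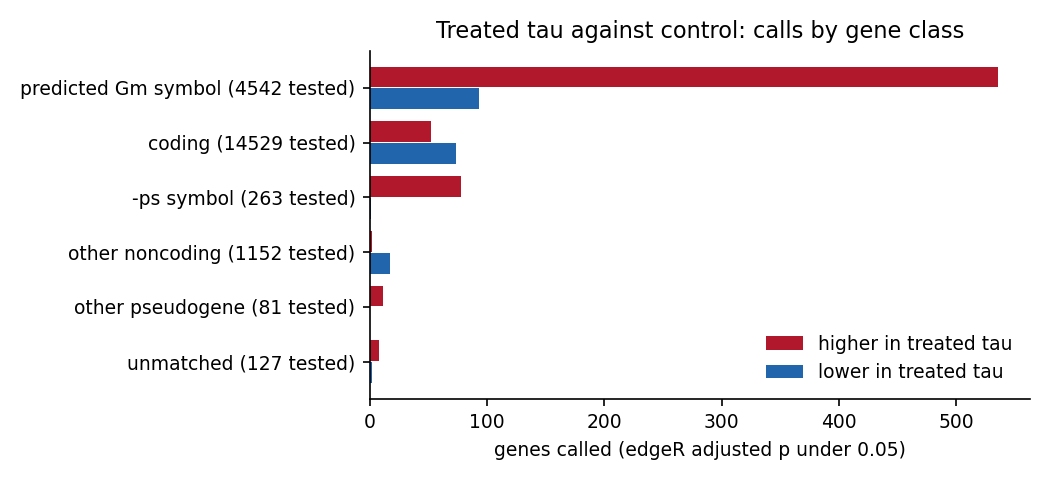
Genes called in treated tau against control by gene class. Bars show the number of genes called higher (red) and lower (blue), and the number tested stands in brackets. Of the 873 calls, 536 are predicted Gm genes that were higher, and coding genes divide into 52 higher and 73 lower.

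The adjusted p-values of single-copy coding genes depended on the genes fitted beside them. All 47 had the same direction in every alternative in which they were tested. Of the 47, 41 were called with DESeq2, 41 with limma-voom, 34 with the legacy fit and 36 with only the 4 libraries compared. When the coding genes were fitted and adjusted alone, 2 of the 47 calls were left, those of Aldoart2 and BC048507 (the latter named after its values were seen), and the median adjusted p of the 47 was 0.191. The 2 libraries of a group also weighed heavily. Without treated tau 2, 3 of the 47 were still called, without treated tau 1 10, without control 2 19 and without the library labelled control 1 11. Without treated tau 1, the 33 single-copy genes called were 27 higher and 6 lower, so the balance of directions was not stable either.

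**Figure D2:**
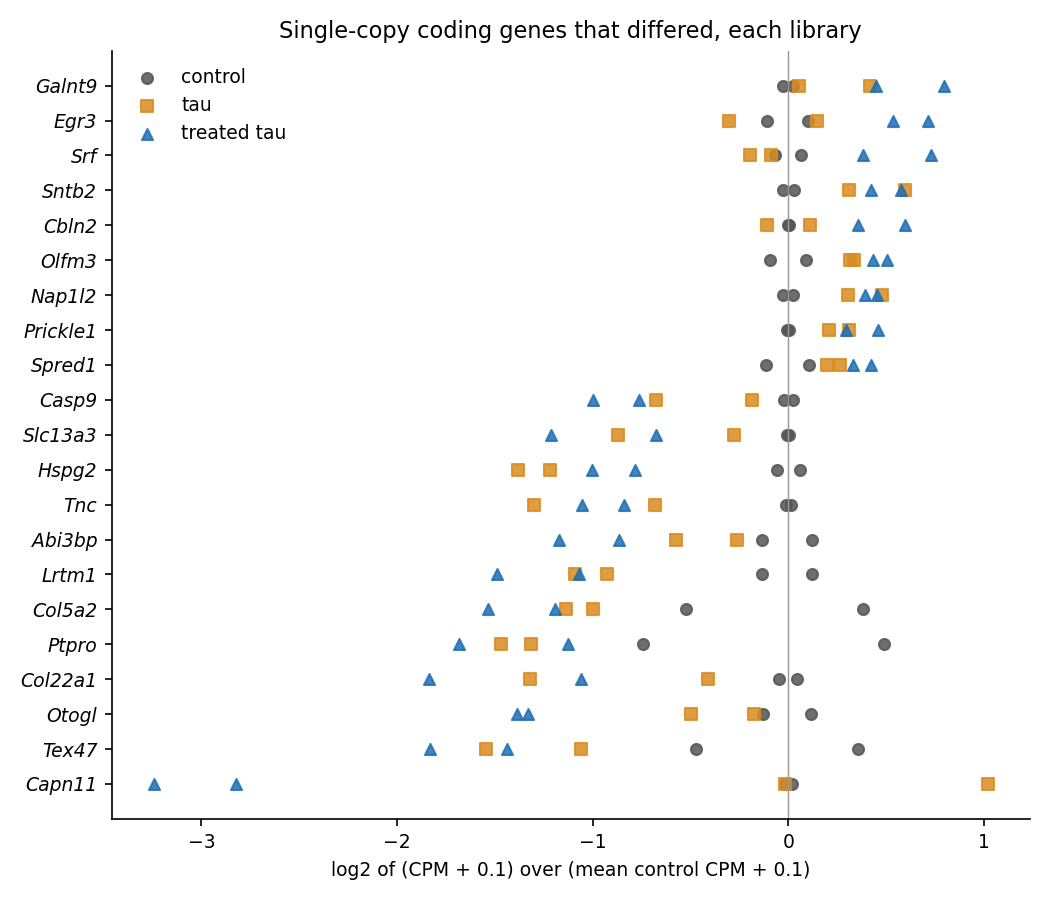
Single-copy coding genes named by the rule, with each library shown as log2 of CPM plus 0.1 over the mean control CPM plus 0.1 (horizontal axis). Grey circles are control, orange squares tau and blue triangles treated tau. As the naming rule required, the 2 treated tau libraries lie outside the range of the 2 control libraries for every gene shown. Aldoart2, at 0.314 CPM in control and 45.0 in treated tau, is left out for scale.

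Several single-copy coding genes that were lower in treated tau encode proteins of the extracellular matrix, a grouping made after their values were seen. The matrix gives tissue its scaffold, and in brain it surrounds vessels, meninges and the perineuronal space. Tnc, the matrix glycoprotein tenascin-C (chromosome 4, 63959785 to 64047015), had 14.7 and 14.9 CPM in control, 7.07 and 8.24 in treated tau, and 9.19 and 5.96 in tau. Both treated tau libraries lay below both controls, as did both tau libraries. Its log2 fold change against control was -0.96 ± 0.19 (SE; adjusted p = 0.0172).

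Hspg2 encodes perlecan, the heparan sulfate proteoglycan of basement membranes (chromosome 4, 137468769 to 137570630). It had 8.09 and 7.45 CPM in control, 3.83 and 4.47 in treated tau, and 3.29 and 2.92 in tau. Treated tau fell by 0.91 on the log2 scale (SE 0.19, adjusted p = 0.0231). Lama3, a laminin chain of epithelial and vascular basement membranes looked at after its values were seen, had 20.6 and 20.3 CPM in control and 12.2 and 10.6 in treated tau. The tau libraries lay between, at 17.8 and 15.8 CPM. Its log2 fold change of -0.84 ± 0.13 had the smallest adjusted p of the matrix genes (0.00488). Abi3bp, a secreted matrix protein that binds other matrix components, changed by -1.01 ± 0.20 (adjusted p = 0.0171).

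Of the collagens, Col5a2, a fibrillar chain, had 11.96 and 6.35 CPM in control, 3.10 and 3.95 in treated tau and 4.11 and 4.53 in tau, a log2 fold change of -1.39 ± 0.30 (adjusted p = 0.0304). Col22a1, found at tissue junctions, had 5.41 and 5.76 CPM in control against 2.63 and 1.49 in treated tau (-1.40 ± 0.32, adjusted p = 0.0411). The 3 other called collagens were looked at after their values were seen. Col6a1, a chain of the microfibril-forming collagen VI, went from 56.0 and 61.3 CPM to 42.9 and 39.5, with tau at 42.9 and 39.7 (-0.51 ± 0.10, adjusted p = 0.0173). Col6a3, a further chain of collagen VI, went from 12.5 and 12.6 CPM to 7.51 and 6.90, with tau at 9.86 and 12.6 (-0.80 ± 0.16, adjusted p = 0.0223). Col12a1, a collagen that associates with fibrils, went from 47.5 and 37.8 CPM to 28.4 and 27.1, with tau at 26.7 and 22.2 (-0.62 ± 0.13, adjusted p = 0.0302). In all 5, which were picked as called, neither treated tau library reached a control value. A lack of overlap between the 2 groups' libraries was seen in 40.6% of all single-copy coding genes tested.

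The collagen family as a whole was then counted, again after values were seen, so the count is a description. Of 43 collagen genes tested, 42 had a negative fold change in treated tau against control, with a median log2 fold change of -0.53, and 5 were called lower. Over all coding genes tested the median was 0.01, and 6869 of 14529 were negative. Summed collagen CPM was 508 and 511 in control, 395 and 367 in treated tau, and 418 and 365 in tau. The 2 controls thus stood close together, and the treated and untreated tau libraries overlapped below them. The median was -0.58 without the library labelled control 1 (1 call), -0.61 without control 2 (7 calls), -0.74 without treated tau 1 and -0.52 without treated tau 2 (0 calls each in edgeR). Of 11 laminin genes, 9 were negative (median -0.35) and only Lama3 was called.

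**Figure D3:**
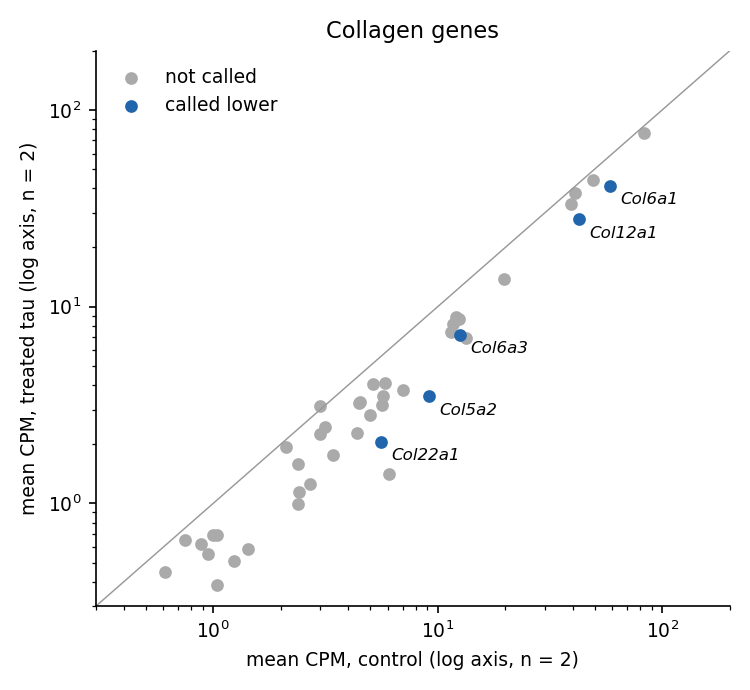
Mean CPM of each collagen gene in control (horizontal) and treated tau (vertical), both on log axes, n = 2 libraries each, with the line of equal level. Blue points are the 5 collagen genes called lower, and 42 of the 43 points lie below the line.

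Markers of meninges and fibroblasts, cells rich in collagen, included Col1a1, Col1a2 and Col3a1, so this list overlaps the collagen family. None of the 12 markers was called and 9 were negative (median -0.19). Their summed CPM was 124 and 167 in control, 156 and 113 in treated tau and 166 and 127 in tau. Endothelial and mural markers summed to 435 and 419 CPM in control and 435 and 349 in treated tau, with 10 of 12 negative and 0 called. Control and treated tau overlapped in both marker sums. The part of these cell types in the collagen values was not tested. None of the matrix genes named above passed with coding genes alone, where adjusted p ran from 0.0521 for Lama3 to 0.237 for Col22a1. Without treated tau 2 it ran from 0.0615 for Lama3 to 0.26 for Col22a1. Lama3 alone passed without treated tau 1 (0.0247; Col5a2 0.237), and Lama3 (0.0286) and Col6a1 (0.0352) passed without the library labelled control 1. Without control 2, Lama3, Abi3bp, Col5a2 and Col12a1 passed (0.002 for Col5a2, 0.116 for Col22a1). Hspg2 and Col12a1 were lost with offsets for GC content and length (0.0672 each), Col5a2 with limma-voom (0.0538) and Col22a1 with the legacy fit (0.0711). With no filter on low counts Col5a2, Col22a1, Col6a1, Col6a3 and Col12a1 were lost (up to 0.0912 for Col12a1).

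Dcx, doublecortin, binds microtubules in migrating and newly made neurons (chromosome X, 143855842 to 143933311). Its level was 53.6 and 43.6 CPM in control, against 28.8 and 26.1 in treated tau and 28.4 and 22.2 in tau. All 4 PS19 libraries lay below both controls. Treated tau changed by -0.82 ± 0.14 against control (adjusted p = 0.00869), and by 0.11 ± 0.15 against tau (adjusted p = 0.886). Dcx was the only member called in edgeR among 24 genes for tubulins, microtubule-associated proteins and neurofilaments, of which 20 were positive (median 0.12), while DESeq2 also called Nefm, Stmn1 and Tuba1c, named after their values were seen. Without the library labelled control 1, where olfactory bulb markers were high, the log2 fold change of Dcx was -0.66 with an adjusted p of 0.0574, and the part of those markers in the result was not tested. It was also above 0.05 without treated tau 1 (0.0593), without treated tau 2 (0.113) and with coding genes alone (0.0716).

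Casp9, the initiator caspase of the mitochondrial cell death pathway (chromosome 4, 141793612 to 141815976), had 72.1 and 74.5 CPM in control and 43.1 and 36.6 in treated tau. The tau libraries had 45.9 and 64.4 CPM, between the groups. The log2 fold change was -0.88 ± 0.15 (adjusted p = 0.0082), and the level fell by 45.5%. The call held without either control library and without treated tau 1 (0.0296 to 0.0364) and was lost without treated tau 2 (0.109) and with coding genes alone (0.0716).

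Sod1, cytosolic superoxide dismutase, and Gsr, glutathione reductase, belong to the enzymes that remove reactive oxygen, and both were looked at after their values were seen. Both were picked as called, and no list of such enzymes was counted. The promoter of Sod1 is shown because both genes were lower in treated tau. It was read from RefSeq on GRCm38.p6 as the 250 bases before the annotated start, chr16:90220512-90220761, plus strand, with the capitals marking a match to TGACNNNGC, the core of the antioxidant response element, on the opposite strand.
Sod1: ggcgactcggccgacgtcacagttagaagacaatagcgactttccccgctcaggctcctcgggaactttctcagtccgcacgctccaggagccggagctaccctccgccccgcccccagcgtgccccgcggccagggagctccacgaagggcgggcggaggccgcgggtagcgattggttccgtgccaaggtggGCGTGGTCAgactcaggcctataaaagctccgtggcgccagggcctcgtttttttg
Searched on both strands, this motif was present in 10.1% of all promoters of the same length and in 4 of the 23 single-copy genes called lower and 0 of the 10 called higher that matched the RefSeq table. The promoter of Gsr is not shown.

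Sod1 (chromosome 16, 90220754 to 90226329) had 109.8 and 99.6 CPM in control and 73.9 and 73.1 in treated tau, against 112 and 106 in tau. Control and tau libraries overlapped, and both treated tau libraries lay below all of them. The log2 fold change was -0.51 ± 0.09 against control (adjusted p = 0.00755) and -0.57 ± 0.09 against tau (adjusted p = 0.00444), 2 comparisons that share the treated libraries. Gsr (chromosome 8, 33652523 to 33698163) had 52.3 and 52.1 CPM in control, 41.2 and 37.7 in treated tau and 60.2 and 55.1 in tau. It changed by -0.40 ± 0.10 against control (adjusted p = 0.0488) and by -0.55 ± 0.10 against tau (adjusted p = 0.011). Its call against control was kept in 4 of 18 alternatives. Limma-voom, the legacy fit, only the 4 libraries compared and a replicate block were among those that lost it. Uqcc2, an assembly factor of respiratory complex III looked at after its values were seen, went from 42.7 and 43.4 CPM to 32.9 and 32.1, with tau at 46.5 and 43.3 (-0.40 ± 0.09, adjusted p = 0.0438). All 3 lost their calls without the library labelled control 1 (0.0504 for Sod1 to 0.156 for Gsr), without treated tau 1 (0.0797 for Sod1 to 0.209 for Uqcc2) and without treated tau 2 (0.0918 for Sod1 to 0.349 for Gsr). Without control 2 Sod1 was called (0.0105) and Gsr and Uqcc2 were not (0.124 and 0.133), nor were these 2 without tau 1 (0.0774 and 0.0761) or tau 2 (0.0743 and 0.0739), and with coding genes alone none was (0.0521 for Sod1, 0.234 for Gsr).

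Further single-copy genes were lower in treated tau. Capn11, a calpain protease expressed in testis, had 2.29 and 2.23 CPM in control, 0.234 and 0.149 in treated tau and 4.69 and 2.24 in tau, a log2 fold change of -3.49 ± 0.61 (adjusted p = 0.00955). Ptpro, a receptor tyrosine phosphatase, had 81.3 and 34.7 CPM in control, against 18.0 and 26.5 in treated tau (-1.39 ± 0.33, adjusted p = 0.0488). Its call was kept in 4 of 18 alternatives. It was lost with DESeq2, limma-voom, the legacy fit, only the 4 libraries compared and a replicate block, among others. Its controls differed more from each other than control 2 did from treated tau, and the adjusted p was 0.169 without the library labelled control 1. Tex47 (-1.66), Otogl, an otogelin-like matrix protein (-1.43), Lrtm1 (-1.28) and Slc13a3, a dicarboxylate transporter (-0.91), were also lower, with adjusted p from 0.0191 for Lrtm1 to 0.0453 for Slc13a3. Of these 6 genes, none passed without treated tau 1 (0.0528 for Slc13a3 to 0.306 for Ptpro), without treated tau 2 (0.0872 for Capn11 to 0.303 for Slc13a3) or with coding genes alone (0.0954 for Capn11 to 0.263 for Ptpro). Capn11 and Lrtm1 passed without the library labelled control 1 (0.0373 and 0.0385), and Capn11, Tex47 and Ptpro without control 2 (up to 0.0299; Lrtm1 0.0924). Ptpro was lost without tau 1 (0.0736) and without tau 2 (0.0636).

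Neb, Ryr1 and Actn2 were also lower and were looked at after their values were seen. Neb, the thin filament protein nebulin, had 12.2 and 11.3 CPM in control and 6.46 and 6.82 in treated tau (-0.82 ± 0.15, adjusted p = 0.0146). Ryr1, a calcium release channel also found in neurons, had 26.7 and 29.7 CPM in control and 19.5 and 14.4 in treated tau (-0.73 ± 0.15, adjusted p = 0.0224). Actn2, an actin crosslinker of the Z-disc and of dendritic spines, changed by -0.61 ± 0.14 (adjusted p = 0.0462). Tau lay between the groups for Neb (8.29 and 9.46 CPM). Without treated tau 2 none of the 3 passed (0.0835 for Neb to 0.173 for Ryr1), and without treated tau 1 or the library labelled control 1 only Ryr1 did (0.0166 and 0.0482). Without control 2 only Neb passed (0.0374), and with coding genes alone none did (0.126 for Neb to 0.24 for Actn2). Actn2 was lost without tau 1 (0.0765) and without tau 2 (0.0737) as well. The 33 lower single-copy genes had long transcripts, with a median of 4979 bases against 3625 for single-copy genes not called. With offsets for GC content and length the single-copy calls were 67 higher and 44 lower, against 14 and 33 without them.

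Fewer single-copy genes were higher, and 2 of them are transcription factors of the response to neuronal activity. Srf, serum response factor, binds the CArG box in the promoters of immediate early genes, its own included, and Egr3 is an immediate early zinc finger factor. The Srf promoter is shown because the gene and an immediate early gene were higher together. It was read from RefSeq on GRCm38.p6 as the 250 bases before the annotated start, chr17:46556163-46556412, minus strand. Capitals mark first a match to GCGGGGGCG, the site bound by Egr factors, and then 2 matches to the CArG box.
Srf: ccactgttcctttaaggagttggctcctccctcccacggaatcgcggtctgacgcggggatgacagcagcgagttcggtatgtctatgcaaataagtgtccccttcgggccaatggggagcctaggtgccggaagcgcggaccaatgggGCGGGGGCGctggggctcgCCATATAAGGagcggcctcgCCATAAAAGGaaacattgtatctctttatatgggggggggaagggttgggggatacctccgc
Searched on both strands, the CArG box was present in 1.40% of the same 27025 promoters and GCGGGGGCG in 2.56%. Of the 10 single-copy genes called higher that matched the RefSeq table, 1 held a CArG box and 1 held GCGGGGGCG, Srf itself in both cases. Of the 23 called lower that matched, GCGGGGGCG was present in 4 (Ccdc40, named after its values were seen, Rps24, Slc13a3 and Tnc) and the CArG box in 0. The promoters of Egr3 and Nap1l2 are not shown.

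Srf (chromosome 17, 46548329 to 46556175) had 31.1 and 34.0 CPM in control, 42.4 and 54.0 in treated tau and 28.4 and 30.6 in tau. Egr3 (chromosome 14, 70077203 to 70082614) had 52.0 and 60.0 CPM in control, 81.1 and 91.8 in treated tau and 45.3 and 62.1 in tau. For both genes control and tau overlapped or adjoined, and both treated tau libraries stood above all 4. The log2 fold change against control was 0.56 ± 0.13 for Srf (adjusted p = 0.0408) and 0.63 ± 0.14 for Egr3 (adjusted p = 0.0406). Against tau, in a comparison that shares the treated libraries, it was 0.71 ± 0.13 (adjusted p = 0.0152) and 0.70 ± 0.15 (adjusted p = 0.0276). Both genes lost their calls against control with the legacy fit. Srf also lost its call with limma-voom and with only the 4 libraries compared.

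The 22 immediate early genes as a list did not follow Egr3 in both treated libraries. Of the 22, 15 were positive (median 0.30), 1 was called, and as deviations from the mean of the 6 libraries the list median was -0.39 in treated tau 1 and 0.70 in treated tau 2. Control stood at 0.14 and -0.11 and tau at -0.42 and 0.26, so treated tau 2 stood highest of the 6 libraries and treated tau 1 close to the lowest. Neither Srf nor Egr3 passed without treated tau 2 (0.298 and 0.284), without the library labelled control 1 (0.177 and 0.183), without control 2 (0.0733 and 0.0519) or with coding genes alone (0.256 each). Egr3 was lost without treated tau 1 as well (0.102), where Srf was called (0.0226). Srf was lost without tau 1 (0.0601) and without tau 2 (0.0545).

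Some of the other single-copy genes that were higher have roles in neurons, and those with the largest rises are given after them. Nap1l2, a neuron-specific histone chaperone of the nucleosome assembly family (chromosome X, 103184176 to 103186640), had 116 and 112 CPM in control, 157 and 150.2 in treated tau and 159.6 and 141 in tau, a log2 fold change of 0.42 ± 0.09 (adjusted p = 0.0209). Sntb2, a syntrophin that anchors membrane proteins to the dystrophin complex, had 54.7 and 56.96 CPM in control, 83.3 and 74.9 in treated tau and 69.1 and 84.4 in tau (0.50 ± 0.11, adjusted p = 0.033). Both tau libraries lay with treated tau for these 2 genes.

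Olfm3, an olfactomedin family protein, rose by 0.47 ± 0.10 (adjusted p = 0.0224), with tau at 58.7 and 57.9 CPM, between control at 43.6 and 49.5 and treated tau at 62.8 and 66.0. Cbln2, a cerebellin that links synaptic membranes, had 72.6 and 72.4 CPM in control, 93.0 and 109.5 in treated tau and 78.3 and 67.2 in tau (0.48 ± 0.11, adjusted p = 0.0361). Here tau lay with control. Galnt9, a brain enzyme that starts O-linked glycosylation, changed by 0.63 ± 0.14 (adjusted p = 0.0334). Spred1, an inhibitor of Ras signalling, and Prickle1, a planar polarity protein, each changed by 0.38 ± 0.09 (adjusted p = 0.0408 and 0.0389). Of these 7 genes, none passed without the library labelled control 1 (0.0564 for Nap1l2 to 0.149 for Spred1), without treated tau 2 (0.0881 for Sntb2 to 0.311 for Prickle1) or with coding genes alone (0.171 for Nap1l2 to 0.263 for Spred1). Without treated tau 1 Galnt9 and Cbln2 passed (0.0283 and 0.048; Sntb2 0.234), and without control 2 Olfm3 and Spred1 did (0.0229 and 0.0115; Galnt9 0.108). Spred1 and Prickle1 were lost without tau 1 (0.0643 and 0.0591) and without tau 2 (0.0567 and 0.0555).

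The largest rise that the naming rule gave among single-copy coding genes was that of Aldoart2, a testis-specific retrogene of aldolase A (chromosome 12, 55565239 to 55566896). It had 0.158 and 0.470 CPM in control, 45.1 and 44.8 in treated tau and 0.782 and 0.0573 in tau, a log2 fold change of 7.14 ± 0.33 (adjusted p = 3.28e-06). The treated libraries were nearly equal and stood far above the other 4. Being a retrogene, it resembles its parent in sequence even though only 0.311% of its 50-base words had an exact match in another gene. The call of Aldoart2 held in every alternative. D1Pas1 (146-fold), BC048507 (24.4-fold), Pin1rt1 (14.3-fold) and Rasl2-9 (7.51-fold) were also called higher. They lie outside the naming rule and were looked at after their values were seen. All were also called against tau, in a comparison that shares the treated libraries. With coding genes alone D1Pas1, Pin1rt1 and Rasl2-9 lost their calls, and with DESeq2 BC048507 and Rasl2-9 did.

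Lists of functions were compared by counts of called members and by medians, beside the 0.86% of coding genes called and their median of 0.01. The lists were written with earlier results of these data known and support nothing on their own. Of 27 function lists, 6 held a called member and 21 held none, and none of the 13 lists of cell type markers and sex-linked transcripts held any. In DESeq2, calls in the lists without one in edgeR included Vamp1, Scn1a, the cholesterol synthesis gene Fdps and the cortical marker Lamp5, and limma-voom called no member of these lists. At an unadjusted p under 0.05 they held up to 8 members each, as ion channels and clock genes did. Medians of the treated tau against control log2 fold change ran from -0.24 to 0.30 over the function lists. Over the lists of markers and sex-linked transcripts they ran from -1.99 for olfactory bulb neurons to 0.80 for sex-linked transcripts.

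**Figure D4:**
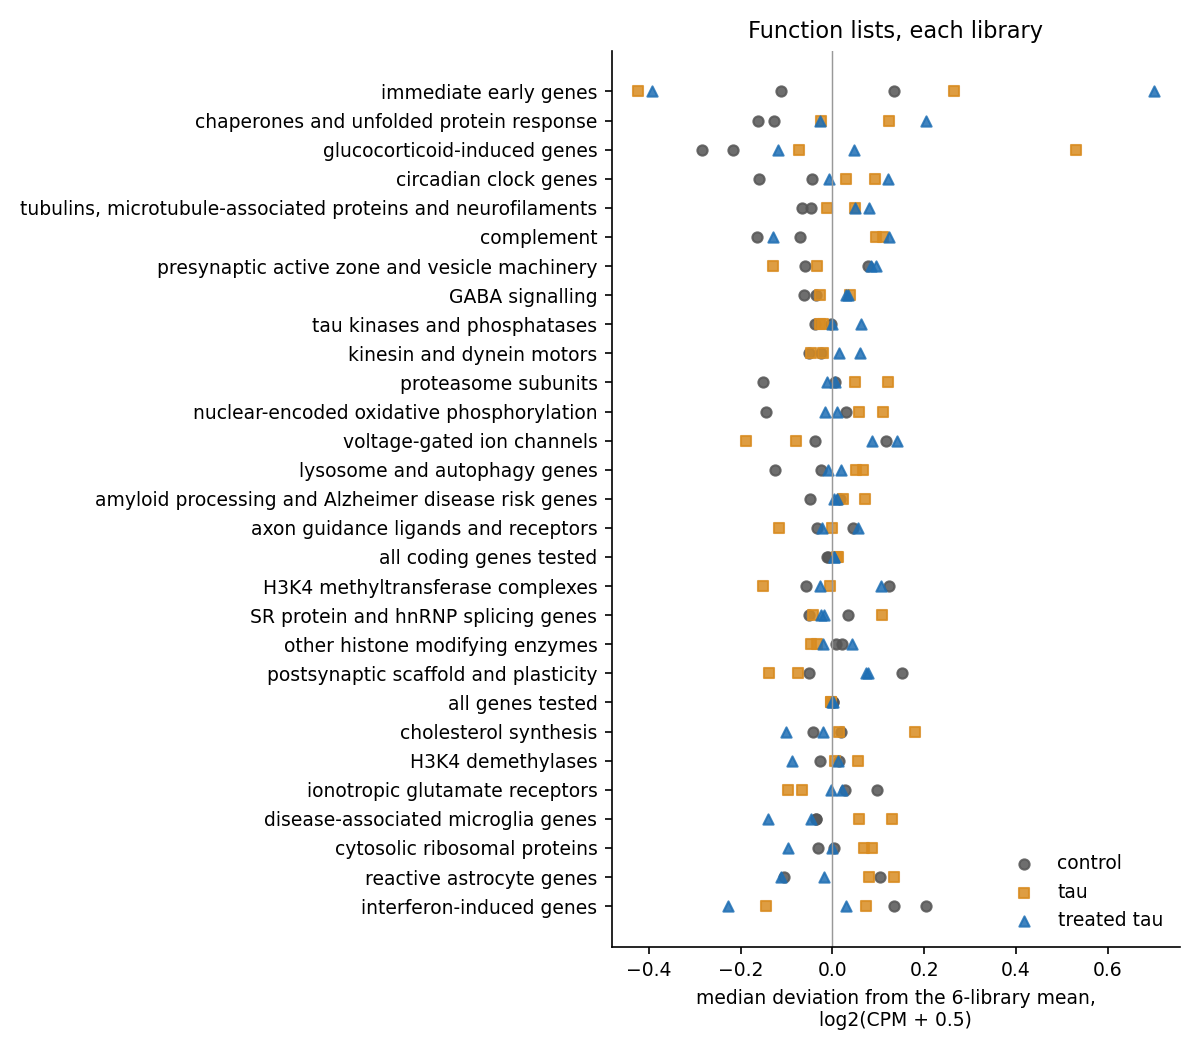
Function lists in each library, as the median over members of the deviation from the 6-library mean of log2(CPM + 0.5), horizontal axis. Lists are ordered by their median fold change in treated tau against control. The 2 treated tau libraries (blue triangles) are furthest apart for immediate early genes, at -0.39 and 0.70.

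No gene of the H3K4 methyltransferase complexes was called in edgeR, DESeq2 or limma-voom, and 2 had an unadjusted p under 0.05 in edgeR. Wdr5 had 26.2 and 27.7 CPM in control, 30.6 and 32.4 in treated tau and 31.3 and 29.7 in tau (0.22 ± 0.10, adjusted p = 0.324). The libraries of treated tau and control did not overlap for Wdr5. Among the 16 genes of these complexes 8 were positive and 8 negative, with a median of 0.006. The smallest adjusted p was that of Kdm6a, an H3K27 demethylase of these complexes encoded on chromosome X (-0.40 ± 0.12, adjusted p = 0.128). It had 54.3 and 69.2 CPM in control, 48.96 and 44.4 in treated tau, and 64.9 and 60.0 in tau. The libraries with high Xist, control 2 and both tau, stood above the library labelled control 1 and both treated tau. The part of sex in this difference was not tested. In tau against control, with which this comparison shares its controls, the list median was -0.15. The 5 H3K4 demethylases (median -0.07) and 29 other histone modifying enzymes (median -0.001) held no call.

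Synaptic lists held no call either. Of 26 genes for the presynaptic active zone and vesicles 23 were positive (median 0.09), led by Vamp1, a vesicle fusion protein, with 81.6 and 77.9 CPM in control and 107 and 109.7 in treated tau (0.44 ± 0.11, adjusted p = 0.0629). Of 26 voltage-gated ion channels 17 were positive (median 0.06), led by the sodium channel Scn1a (0.24 ± 0.07, adjusted p = 0.0888). The 22 postsynaptic scaffold genes were evenly divided, with 11 in each direction. Of 15 ionotropic glutamate receptors 11 were negative (median -0.08), and of 17 GABA signalling genes 12 were positive (median 0.08). In tau against control, over the same controls, the medians were -0.18 for ion channels, -0.16 for postsynaptic genes, -0.12 for glutamate receptors and -0.03 for presynaptic genes.

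Most genes of protein folding had positive fold changes. Of 26 chaperone and unfolded protein response genes 24 were positive, with a median of 0.29, against 7660 of 14529 for coding genes. The only call was Hspa1b, an inducible Hsp70, with 3.08 and 4.12 CPM in control, 6.81 and 9.25 in treated tau and 5.12 and 4.18 in tau (1.14 ± 0.24, adjusted p = 0.0255). It shares 62.3% of its 50-base words with other genes, so its value is uncertain, and it was lost without the library labelled control 1 (0.142), without treated tau 2 (0.177) and with coding genes alone (0.216). As deviations from the 6-library mean the chaperone medians were -0.16 and -0.13 in control, -0.03 and 0.20 in treated tau and -0.02 and 0.12 in tau. Glucocorticoid-induced genes had 13 of 17 positive (median 0.28) and circadian clock genes 12 of 16 (median 0.18), with no call in either list.

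Immune lists held no call. Of 22 interferon-induced genes 20 were negative (median -0.24), with library medians of 0.20 and 0.13 in control, 0.03 and -0.23 in treated tau and 0.07 and -0.14 in tau. Disease-associated microglia genes had 12 of 16 negative (median -0.08), reactive astrocyte genes 9 of 12 (median -0.10) and complement genes 4 of 13 (median 0.11). Homeostatic microglia markers summed to 324 and 373 CPM in control and 359 and 355 in treated tau. Among 23 amyloid processing and Alzheimer disease risk genes only Cd2ap, an adaptor of the actin cytoskeleton, was called, at -0.60 ± 0.13 (adjusted p = 0.033), with 5.24% of its words shared. It was lost with coding genes alone (0.205), without the library labelled control 1 (0.168), without treated tau 2 (0.266) and without tau 1 or tau 2 (0.0585 and 0.0535).

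Nuclear-encoded oxidative phosphorylation genes were divided. Of 29, 22 were positive (median 0.06), yet the 3 called members were lower. Cox5b, a subunit of cytochrome c oxidase, had 54.5 and 47.3 CPM in control, 28.6 and 30.2 in treated tau and 48.4 and 54.7 in tau (-0.79 ± 0.11, adjusted p = 0.00249). Cox6c, of the same enzyme, changed by -0.56 ± 0.09 (adjusted p = 0.00642) and Ndufs3, of complex I, by -0.48 ± 0.11 (adjusted p = 0.036). All 3 share sequence above the limit, by 8.37% to 17.9% of their words, and are therefore uncertain. Cox5b was called in every alternative. Cox6c was lost without treated tau 1 (0.0929), without treated tau 2 (0.0537) and with coding genes alone (0.0521). Ndufs3 was lost in these too (0.132, 0.284 and 0.2), without the library labelled control 1 (0.201) and without tau 1 or tau 2 (0.0685 and 0.0662). The remaining lists without a call were proteasome subunits (median 0.07), tau kinases and phosphatases (0.08), kinesin and dynein motors (0.08), axon guidance (0.02), cholesterol synthesis (-0.05), lysosome and autophagy (0.05) and splicing factors (0.004).

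Cytosolic ribosomal protein genes held the most calls of any list, in both directions, with 9 higher and 9 lower of 50 tested. Rps28 fell from 22.3 and 20.8 CPM to 2.81 and 2.91 (tau 23.2 and 24.9), a log2 change of -2.92 ± 0.15 (adjusted p = 6.73e-06). Rpl35 went from 5.88 and 5.14 CPM to 0.877 and 0.634 (-2.83 ± 0.28). Rpl30 rose from 12.5 and 13.01 CPM to 27.7 and 29.6 (1.17 ± 0.12, adjusted p = 0.000315). Subunits of one particle thus moved in opposite directions, and each of these 3 shares from 11.3% to 84.0% of its words with other genes. Rps24, looked at after its values were seen, was the single-copy member among those called, at -0.40 ± 0.08 (adjusted p = 0.0246), with 4.86% shared, just inside the limit. It was lost without any 1 of the 4 libraries compared (0.076 without control 2 to 0.185 without treated tau 1), with coding genes alone (0.14) and with no filter on low counts (0.0639). Summed over the 50 genes the level was 2462 and 2382 CPM in control, 2165 and 2271 in treated tau and 2679 and 2618 in tau.

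Further called coding genes share sequence with other genes, and their values are uncertain because reads can pass between copies. Myl12b, a regulatory myosin light chain, went from 13.1 and 11.9 CPM to 176 and 174, with tau at 16.3 and 13.8 (3.81 ± 0.11). Jakmip1, a microtubule- and RNA-binding protein, went from 13.9 and 14.1 CPM to 128 and 126, with 13.1 CPM in each tau library (3.18 ± 0.10). Both shifts set the treated tau libraries apart from all 4 others, with near-identical duplicates. Csl (2.76 ± 0.19), Elp6, an Elongator subunit (2.48 ± 0.17), and Rpl3 (2.45 ± 0.43) were also higher. Ndor1, a flavoprotein reductase (-1.82 ± 0.20), Fbl, the methyltransferase fibrillarin (-1.16 ± 0.26), and Dnah7b, an axonemal dynein chain (-1.06 ± 0.25), were lower. Myl12b, Jakmip1, Csl, Elp6, Rps28, Rpl35 and Ndor1 were called in every alternative and belong to the 24 of 125 called coding genes for which this held. Rpl3 was lost without control 2 (0.0532), without treated tau 2 (0.0695) and with coding genes alone (0.0974). Fbl was lost without any 1 of the 4 libraries compared (0.0673 without the library labelled control 1 to 0.244 without treated tau 1). Dnah7b was called without control 2 (0.0189) and lost with any other library left out (0.0581 without tau 2 to 0.24 without treated tau 1).

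Genes that an earlier reading of these data named for tau against control lay nearer to control in treated tau than in tau. For Dcx above the step was small (-0.82 against -0.93). The genes were chosen for their distance between control and tau, so the nearer values are a description only. That set does not hold every gene of small p in tau against control. Hspg2 had the same edgeR adjusted p there as Dcx (0.341), at -1.31, and was still called in treated tau at -0.91. Tnc stood at -0.93 in tau and -0.96 in treated tau. Shank1, a scaffold of excitatory synapses, had 149 CPM in both controls, 117 and 134 in treated tau and 84.98 and 94.9 in tau (-0.25 ± 0.09 against control, adjusted p = 0.219). Scube1, a secreted EGF-repeat protein, had 77.3 and 88.5 CPM in control, 69.6 and 66.0 in treated tau and 47.8 and 49.5 in tau (-0.29 ± 0.09, adjusted p = 0.156). Ndnf, a secreted neurotrophic factor, had 39.8 and 37.8 CPM in control, 29.4 and 27.03 in treated tau and 22.6 and 18.7 in tau (-0.46 ± 0.11, adjusted p = 0.0622). For Shank1, Scube1 and Ndnf the treated tau libraries lay between control and tau with no overlap, in values chosen for their distance between control and tau.

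Snhg11, a host transcript, is classed as protein coding by the annotation used here and is counted among the single-copy coding genes. It had a log2 fold change of -0.23 ± 0.07 against control (adjusted p = 0.11). Enpp2 (0.20), Selenop (0.19), Gng3 (0.17), Calm2 (0.10) and Mt1 (0.37) did not pass, with adjusted p from 0.127 for Mt1 to 0.541 for Calm2. Endogenous mouse tau, Mapt, stood at 576 and 450.4 CPM in control and at 459 and 497 in treated tau (-0.10 ± 0.11, adjusted p = 0.7). Sgk1, a glucocorticoid-induced kinase, had 67.3 and 64.7 CPM in control and 122 and 65.5 in treated tau (0.51 ± 0.40, adjusted p = 0.587). Prnp changed by 0.46 ± 0.23 (adjusted p = 0.368), and passed once the library labelled control 1 was left out (0.000951).

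Predicted Gm genes and -ps symbols are kept apart from the coding genes. Of 4542 Gm symbols tested, 536 were higher in treated tau (median log2 fold change 2.27) and 93 lower (median -1.62), 13.8% in all. Of 263 symbols ending in -ps, most of them pseudogene copies named for a parent gene, 78 were higher (median 1.65) and 1 lower. Among the higher genes, 77.6% of the Gm and 78.2% of the -ps symbols shared words with another gene above the limit. For 66 called -ps symbols the parent gene was tested too. Of the 62 parents, 1 was called higher and 4 lower, and their median log2 fold change was 0.03. The -ps symbols took 0.448% and 0.454% of counts in treated tau and 0.338% to 0.372% in the 4 other libraries, and Gm symbols 2.66% and 2.61% against 2.22% to 2.41%. Counts on these symbols thus divided the libraries by treatment, as the symbol lists of the deposited tables also did, and the 2 cannot be told apart.

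**Figure D5:**
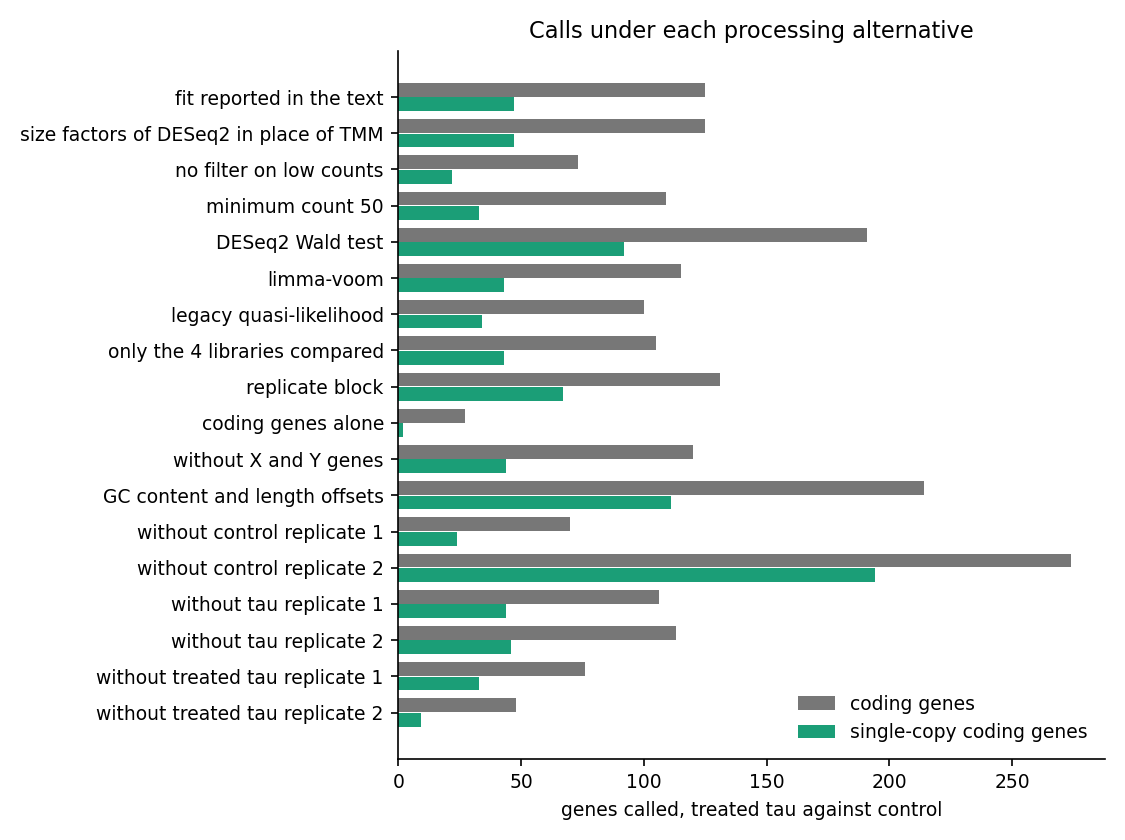
Number of coding genes (grey) and single-copy coding genes (green) called in treated tau against control under each processing alternative. Single-copy calls run from 2 with coding genes alone to 194 without control 2, against 47 in the fit reported.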

How the data were processed

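The deposited values are read counts per gene symbol, 1 table per library, made by the authors. Per the labels' protocols, ribosome-depleted total RNA was made into strand-specific libraries, trimmed with Cutadapt and aligned to RefSeq mRNAs with TopHat2. Also named in the submitters' processing notes are SAMtools, featureCounts, edgeR and mm10. The sources used here give no versions, counting strand or rule for multiply aligned reads. The file headers number 4 libraries otherwise than the titles and name merged alignments. Each control or tau table has 54429 symbols, and each treated tau table has 54134 symbols.

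Counts of the 53640 shared symbols were filtered by filterByExpr at a minimum count of 10 and TMM-scaled. A model of all 6 libraries was fitted in edgeR 4.0.16 (R 4.3.3) and tested two-sided by quasi-likelihood, with 3 residual degrees of freedom. Adjusted p is the Benjamini-Hochberg value over 20694 genes, with a threshold of 0.05. Fold changes carry the fit's standard error, and ± marks it throughout. GENCODE M21 (mm10) gave gene classes and positions for 20557 tested symbols. Words of 50 bases came from its transcripts, and only exact matches were counted. The script was tested on simulated data.

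The comparison, members and lists were chosen with earlier results of these data known. Named genes were, of called single-copy coding genes whose average log2 CPM reached 1 and whose groups' libraries did not overlap, the 12 with the largest fold change in each direction, and the genes of smallest p up to 8 where a direction had fewer than 5. Up to 3 called members of each list were added, or else the member of smallest p, with 5 genes of shared sequence in each direction and fixed label-check genes. Any other gene is said to have been looked at afterwards. A gene that this rule names is not reported here. Counts carry no molecular identifiers, so precision reflects counting and the 2 libraries a group. Alternatives were DESeq2 1.42.0, limma-voom (limma 3.58.1), DESeq2 size factors, other filters, the legacy fit, 4 libraries only, coding or single-copy genes alone, no X and Y genes, GC and length offsets (mgcv 1.9.3), a replicate block and each library left out. Same-strand word matching was added after the data were seen.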

Additional observations from a re-analysis of the deposited data

Results flagged for a closer look

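The symbols listed only in the treated tau tables lie outside the comparison and held counts. They took 0.333% of the counts of treated tau 1 and 0.351% of those of treated tau 2. Of these 494 symbols, 188 and 163 had at least 3 counts. The control tables do not list them, so no control level can be set beside these values and no test was made.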

How the results depend on the processing

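None of the 125 called coding genes reversed its direction in any alternative, and 24 were called in all of them. Against 125 coding calls, there were 73 with no filter on low counts, 191 with DESeq2 (80 higher, 111 lower), 27 with coding genes alone and 214 with GC content and length offsets. Leaving out 1 library gave 48 (without treated tau 2) to 274 (without control 2) coding calls and 494 (without treated tau 2) to 816 (without tau 2) calls over all genes. Against 47 single-copy calls, there were 22 with no filter, 92 with DESeq2, 2 with coding or single-copy coding genes alone and 111 with the offsets, and 9 (without treated tau 2) to 194 (without control 2) with 1 library left out. The log2 fold change of Xist was 3.40 without control 2 and -7.22 without the library labelled control 1. With a replicate block there were 796 calls, 131 coding and 67 single-copy. The correlation of deviations between same-numbered libraries, over 14359 genes, was -0.03 for control and treated tau. It was 0.05 for control and tau and 0.13 for tau and treated tau. With 2 libraries a group each value compares a single difference per group, so it cannot decide whether the replicate numbers pair the samples. Counting words on the same strand only gave 53 single-copy calls. The collagen median was -0.52 to -0.74 with 1 compared library left out. The cause of these shifts was not tested.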
